A study of Mus musculus with 11 samples.

Results

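Chaperones and co-chaperones of the ER lumen fold newly made secretory and membrane proteins. The 10 genes described here were taken by name from the deposited table of 24421 genes. *Hspa5* encodes BiP, the Hsp70 of the ER lumen, and *Hsp90b1* encodes GRP94, its Hsp90. *Dnajb9*, *Dnajb11* and *Dnajc3* encode J-domain proteins, which stimulate the ATPase of BiP and bring clients to it. *Hyou1* and *Sil1* encode nucleotide exchange factors of BiP, *Sdf2l1* a partner of the DNAJB11 protein, *Manf* a protein that binds BiP, and *Creld2* an ER stress-induced protein of the lumen. All 10 genes were above the expression filter and were tested.

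The genes were measured by bulk RNA-seq in 11 pools of cDC1s, the conventional dendritic cells that cross-present antigen to CD8+ T cells. These were sorted from B16 melanomas grown in mice. Control pools (n = 4) came from mice without Cre, of which replicates 1 to 3 were XBP1 fl/fl and replicate 4 was XBP1 fl/fl IRE1 fl/fl. XBP1ΔDC pools (n = 4) were XBP1 fl/fl with CD11c-CRE, and XBP1ΔDCIRE1truncDC pools (n = 3) carried XBP1 fl/fl, IRE1 fl/fl and CD11c-CRE and are also called double-deficient here. All groups therefore shared the floxed *Xbp1* alleles. The Cre deletes exon 2 of *Xbp1* and exons 20 to 21 of *Ern1*, the gene of IRE1, and the latter leaves a truncated IRE1 without its RNase domain. The CD11c promoter is active in other dendritic cells and in some macrophages too, so the deletions were not restricted to cDC1s. Each pool was made from 2 to 4 mice on the C57BL/6 background. The study used litters of both sexes at an age of 6 to 14 weeks, and the sexes in a pool are not given in the sources used here.

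Unfolded protein in the ER lumen activates the sensors IRE1, PERK and ATF6. The RNase of IRE1 splices *Xbp1* mRNA into the form that encodes XBP1s, a transcription factor, and cleaved ATF6 is a transcription factor as well. Promoters of many ER chaperone genes hold an ERSE, a sequence with a CCAAT box for NF-Y and a CCACG box that both ATF6 and XBP1s can bind. cDC1s are known for high IRE1 activity without an added stressor. The question asked of these genes was which of them were lower, and which higher, without XBP1.

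Promoter motifs are shown first because genes with a shared motif had different directions in the data below. RefSeq promoters (GRCm38.p6, from 250 bases before to 50 after the transcription start) were searched for 7 of the 10 genes. *Hyou1* and *Manf* had no entry, and *Sil1* was left out of the search, so the motif counts do not cover these genes. An exact ERSE (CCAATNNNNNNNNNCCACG, both strands) was found in 4 of the 7, *Hspa5*, *Hsp90b1*, *Dnajc3* and *Creld2*. It occurred in 39 of all 32851 promoters (0.119%). The ERSE-II (ATTGG and CCACG separated by any single base, both strands) was found in *Dnajb11* alone and in 0.0365% of all promoters, and the UPRE (TGACGTGG, both strands) in none of the 7 and in 0.676% of all. No exact match was present in the promoters of *Dnajb9* and *Sdf2l1*. The RefSeq starts of *Hspa5*, *Hsp90b1* and *Dnajb9* lie inside the first exon of a longer GENCODE transcript, so the bases before that transcript were searched in part for *Hspa5* and *Hsp90b1* and not for *Dnajb9*. Exact matching misses variant sites, and a match is a description of letters.

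The matches are given 5′ to 3′ on the strand that reads CCAAT or ATTGG, with the conserved boxes in capitals. The *Hspa5* match, at chr2:34772025-34772043 on the plus strand, lay 65 to 47 bases before the RefSeq start. The pair in *Hsp90b1*, at chr10:86705638-86705656 on the minus strand and chr10:86705533-86705551 on the plus strand, lay 212 to 194 and 107 to 89 bases before the start. The *Dnajc3* match, at chr14:118937827-118937845 on the plus strand, lay 105 to 87 bases before it. The *Creld2* match, at chr15:88819520-88819538 on the minus strand, lay 126 to 108 bases before it. The ERSE-II of *Dnajb11*, at chr16:22857852-22857862 on the plus strand, lay 7 to 17 bases after the start.
Hspa5: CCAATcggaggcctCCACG
Hsp90b1, far: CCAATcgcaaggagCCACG
Hsp90b1, near: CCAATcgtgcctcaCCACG
Dnajc3: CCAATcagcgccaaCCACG
Creld2: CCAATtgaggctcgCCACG
Dnajb11: ATTGGcCCACG

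**Figure D1:**
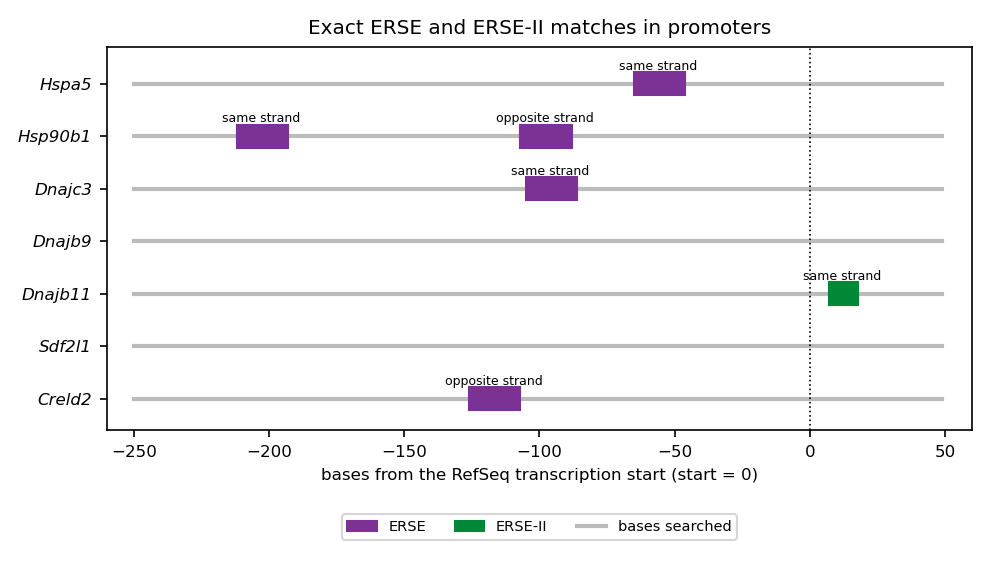
Exact ERSE (purple) and ERSE-II (green) matches in the 7 promoters, plotted by distance in bases from the RefSeq transcription start (0), with the grey line marking the bases searched. The label over a box says whether the match reads on the strand of the gene. Dnajb9 and Sdf2l1 show no match, and Hsp90b1 shows 2.

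The pools held 21089065 to 26843486 counts each, and the smallest count of any of the 10 genes in a pool was 246, for *Dnajb9*. Values below are CPM, counts relative to the depth of each pool, after TMM scaling in edgeR, and the test is edgeR's quasi-likelihood test in a fit of all 3 groups, with p-values adjusted over the 10951 genes tested. A call is an adjusted p under 0.05. *Xbp1* was at 244 to 271 CPM in controls, 130.1 to 165 in XBP1ΔDC and 179 to 236 in XBP1ΔDCIRE1truncDC pools, and *Ern1* at 9.82 to 19.0, 9.74 to 15.6 and 17.0 to 26.0. Gene counts do not show the loss of single exons. The 12 cDC1 markers summed to 13130 to 14330 CPM in controls, 11010 to 12340 in XBP1ΔDC and 12040 to 12810 in XBP1ΔDCIRE1truncDC pools. Of these, *Naaa* was called lower in both lines (4141, 2905 and 3298 CPM on average in the 3 groups, adjusted p = 0.000495 and 0.0396 from edgeR). The other 11 passed in neither, with *Xcr1* at log2 0.01 and 0.04 and *Clec9a* at 0.02 and 0.08. *Itgae* was at -0.26 and -0.24, *Snx22* at -0.17 and -0.51 and *Zbtb46* at 0.04 and 0.30. Of the 12 markers, 8 were lower in XBP1ΔDC and 7 in XBP1ΔDCIRE1truncDC. At an unadjusted p under 0.05, 2 were lower in XBP1ΔDC (4.95% of all genes). In XBP1ΔDCIRE1truncDC 3 were lower (5.44%) and 1 higher (5.73%). Macrophage and monocyte markers (10 genes) summed to 41.4 to 73.3, 51.6 to 143.6 and 47.2 to 94.4 CPM, and melanoma markers (7 genes) to 8.96 to 60.9, 12.2 to 64.7 and 8.74 to 11.02. All 10 of the former were higher in XBP1ΔDC (median log2 0.72) and 7 in XBP1ΔDCIRE1truncDC (0.20), where 51.2% and 49.4% of all genes were. Of 4 melanoma markers tested, 2 were lower in XBP1ΔDC (median -0.02) and 3 in XBP1ΔDCIRE1truncDC (-1.86). None of these markers passed in edgeR. Their part in the results below was not tested. The 5 plasma cell markers in the table summed to at most 9.65 CPM, with *Jchain* and *Pou2af1* at 0 in every pool, and neutrophil markers to at most 1.57. In bulk RNA, fewer expressing cells and less RNA per cell cannot be told apart.

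BiP and GRP94 transcripts were at the top of the group in every genotype, and *Hspa5* rose in both lines. *Hspa5* (chr2:34771970-34777547, GRCm38) was at 1631, 1704, 1647 and 1718 CPM in the controls, listed from replicate 1 to 4. It stood at 2134, 2253, 2272 and 2173 CPM in XBP1ΔDC replicates 1 to 4. In XBP1ΔDCIRE1truncDC replicates 1 to 3 it was at 2740, 3351 and 2406 CPM. No pool of one group reached the range of another, and the double-deficient pools were spread most widely. The log2 fold change against control was 0.40 in XBP1ΔDC (1.32-fold, standard error 0.0836, adjusted p = 0.0444 from edgeR). It was 0.76 in XBP1ΔDCIRE1truncDC (1.69-fold, standard error 0.0896, adjusted p = 0.00314 from edgeR), where *Hspa5* took place 5 of all genes by p. Between the lines the log2 difference was 0.36 (adjusted p = 0.321 from edgeR, unadjusted 95% interval 0.16 to 0.55).

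The call of *Hspa5* in XBP1ΔDC was near the threshold. It passed in 8 of 20 alternative fits, with adjusted p-values from 0.00194 to 0.155 and log2 values from 0.39 to 0.43. It was lost when a single pool was left out, whichever of the 4 control or 4 XBP1ΔDC pools, and on leaving out XBP1ΔDCIRE1truncDC replicate 1 (adjusted p from 0.0673 to 0.155 in edgeR, log2 values from 0.39 to 0.41). In XBP1ΔDCIRE1truncDC it passed in 20 of 20, with log2 values from 0.62 to 0.86.

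*Hsp90b1* (chr10:86690209-86705509) was at 899, 1036, 1007 and 1109 CPM in controls and at 1102, 1313, 1366 and 1342 CPM in XBP1ΔDC pools. In XBP1ΔDCIRE1truncDC pools it was at 1414, 1796 and 1179 CPM. The 3 double-deficient pools lay above all controls, while XBP1ΔDC replicate 1 lay below control replicate 4. Its log2 fold change was 0.34 in XBP1ΔDC (adjusted p = 0.416 from edgeR) and 0.53 in XBP1ΔDCIRE1truncDC (standard error 0.126, adjusted p = 0.111 from edgeR), so neither passed. By DESeq2 the second value passed, with an adjusted p of 0.00823. *Hsp90b1* shares 415 exon bases with a pseudogene on the opposite strand, and whether counting used strand is not given in the sources used here. It also shares 133 and 84 exon bases with *Gm25745* and *Gm15344* on its own strand, which no strand setting separates.

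**Figure D2:**
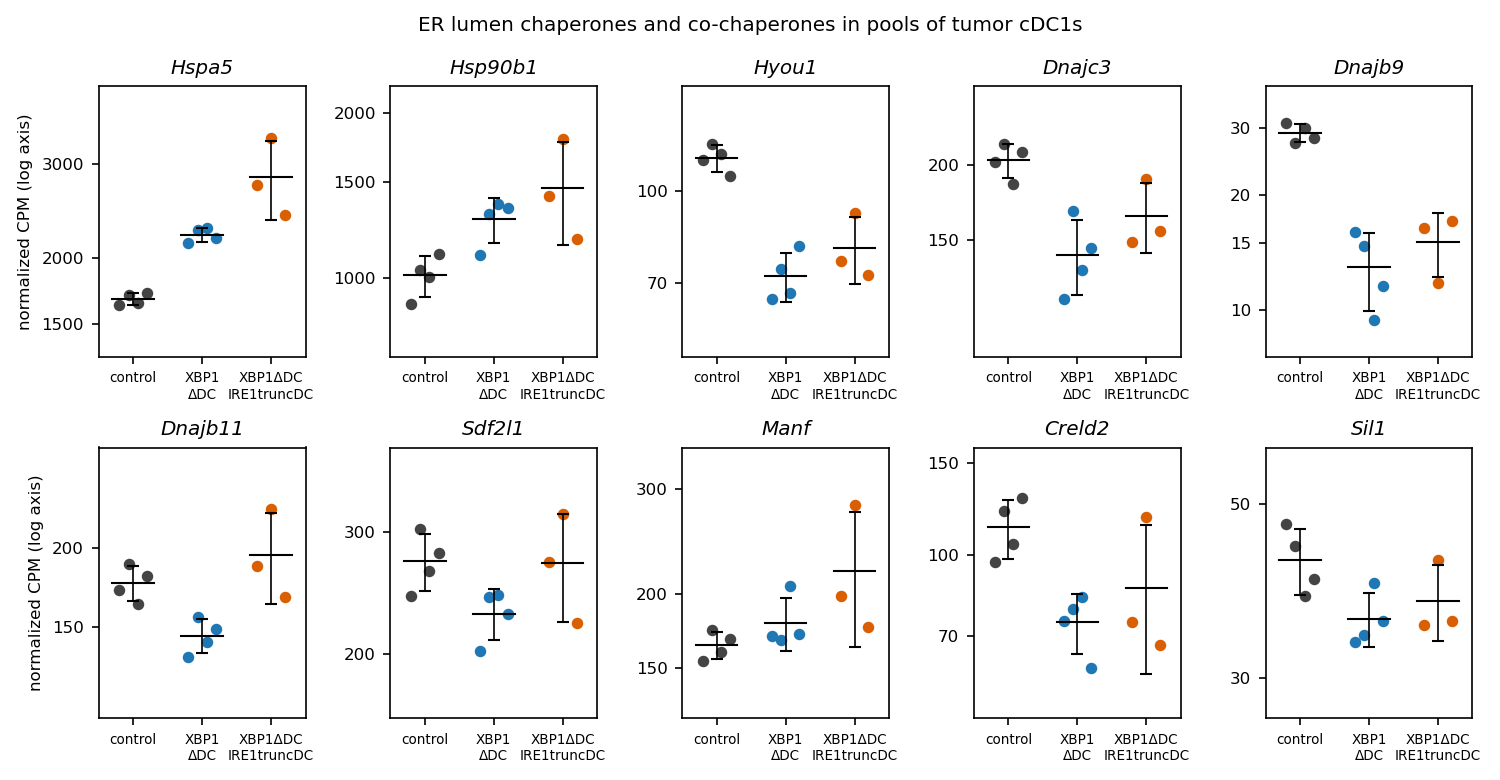
Normalized CPM (log axis) of each gene in the 4 control, 4 XBP1ΔDC and 3 XBP1ΔDCIRE1truncDC pools. Each point is a pool, the horizontal line is the group mean and the bar is the SD. Hspa5 is higher in both lines, with no overlap between groups, while Dnajb9 and Hyou1 are below all control pools in both.

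The J-domain proteins included the gene with the largest decrease. *Dnajb9* (chr12:44205559-44210326), which encodes ERdj4, a co-chaperone that also binds the IRE1 lumenal domain, was at 30.8, 27.4, 29.9 and 28.1 CPM in controls. It was at 16.0, 14.7, 9.42 and 11.6 CPM in XBP1ΔDC pools and at 16.4, 11.7 and 17.0 CPM in XBP1ΔDCIRE1truncDC pools. Every pool of both lines was below every control pool, and the lines overlapped each other. The log2 fold change was -1.17 in XBP1ΔDC (2.25-fold lower, standard error 0.173, adjusted p = 0.00427 from edgeR), and this call held in 20 of 20 alternative fits. In XBP1ΔDCIRE1truncDC it was -0.95 (1.93-fold, adjusted p = 0.0556 from edgeR), just outside the threshold. That value passed in 5 of 20 alternative fits, with adjusted p-values from 0.000803 to 0.155. Among these, leaving out XBP1ΔDC replicate 3, which enters through the shared spread, gave 0.0343 with a log2 value of -0.95.

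*Dnajc3* (chr14:118937976-118981697), which encodes P58IPK, was at 202, 217, 186 and 210.5 CPM in controls. It was at 119.9, 167, 134 and 146 CPM in XBP1ΔDC pools, all below the controls. In XBP1ΔDCIRE1truncDC pools it was at 149, 189.7 and 155 CPM, and replicate 2 lay within the control range. The log2 fold change was -0.52 in XBP1ΔDC (1.44-fold lower, standard error 0.109, adjusted p = 0.0427 from edgeR). It was -0.31 in XBP1ΔDCIRE1truncDC (adjusted p = 0.339 from edgeR). The call in XBP1ΔDC was also lost on leaving out a single pool, whichever of the 4 controls, of XBP1ΔDC replicates 1, 3 and 4, or of XBP1ΔDCIRE1truncDC replicates 1 and 3. Adjusted p-values were then 0.0547 to 0.142 in edgeR, with log2 values from -0.57 to -0.45.

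*Dnajb11* (chr16:22857845-22879634), which encodes ERdj3, was at 171, 189, 163 and 180.5 CPM in controls. It was at 135, 155, 142 and 149 CPM in XBP1ΔDC pools and at 187, 230.4 and 168 CPM in XBP1ΔDCIRE1truncDC pools. XBP1ΔDC pools were below both other groups without overlap. No comparison passed in edgeR, with log2 differences of -0.28 in XBP1ΔDC (adjusted p = 0.416) and 0.15 in XBP1ΔDCIRE1truncDC (adjusted p = 0.675) against control. Between the lines it was 0.43 higher in XBP1ΔDCIRE1truncDC (adjusted p = 0.299 from edgeR), the largest of the 10 values in that comparison. DESeq2 gave that difference an adjusted p of 0.0348.

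Among the exchange factors, *Hyou1* (chr9:44379490-44392369), the gene of GRP170, fell in XBP1ΔDC. It was at 112.7, 119.8, 115 and 106 CPM in controls and at 65.8, 73.8, 67.4 and 80.6 CPM in XBP1ΔDC pools. XBP1ΔDCIRE1truncDC pools were at 76.3, 91.8 and 72.1 CPM. All pools of both lines were below all controls. The log2 fold change was -0.66 in XBP1ΔDC (1.58-fold lower, standard error 0.0945, adjusted p = 0.00341 from edgeR), a call that held in 20 of 20 alternative fits. It was -0.50 in XBP1ΔDCIRE1truncDC (1.42-fold, adjusted p = 0.0614 from edgeR), and -0.61 with an adjusted p of 0.0274 without XBP1ΔDCIRE1truncDC replicate 2. *Sil1*, the other exchange factor, was at 38.2 to 47.1, 33.4 to 39.7 and 35.1 to 42.4 CPM in control, XBP1ΔDC and XBP1ΔDCIRE1truncDC pools. Its log2 values of -0.25 (adjusted p = 0.603) and -0.17 (adjusted p = 0.652) did not pass in edgeR.

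Of the remaining partners, *Creld2* had the largest difference. It was at 97.2, 121, 105 and 128 CPM in controls, 75.0, 79.0, 83.3 and 61.0 CPM in XBP1ΔDC pools and 74.6, 118 and 67.5 CPM in XBP1ΔDCIRE1truncDC pools. The XBP1ΔDC pools were all below the controls, while the double-deficient pools were split, with replicate 2 within the control range. The log2 values were -0.60 in XBP1ΔDC (1.52-fold, adjusted p = 0.192 from edgeR) and -0.38 in XBP1ΔDCIRE1truncDC (adjusted p = 0.455 from edgeR). The first passed by DESeq2, in a fit of those groups alone, and in edgeR without XBP1ΔDCIRE1truncDC replicate 2 (log2 -0.60, adjusted p = 0.0283).

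*Sdf2l1* was at 243 to 303 CPM in controls, 202 to 243 in XBP1ΔDC pools and 222 to 318 in XBP1ΔDCIRE1truncDC pools, and the ranges overlapped in every comparison. Its log2 values were -0.25 (adjusted p = 0.629, unadjusted 95% interval -0.49 to -0.01) and -0.01 (adjusted p = 0.989, interval -0.27 to 0.25) in edgeR. *Manf* was at 154 to 174 CPM in controls, 167 to 206 in XBP1ΔDC pools and 176 to 282 in XBP1ΔDCIRE1truncDC pools. The double-deficient pools were all above the controls, with log2 values of 0.12 in XBP1ΔDC (adjusted p = 0.944) and 0.41 in XBP1ΔDCIRE1truncDC (adjusted p = 0.275) in edgeR. *Manf* shares 166 exon bases with *4930524O07Rik* and 146 with *Dcaf1* on the opposite strand, and 14 with *Rbm15b* on its own, which limits what its count can be attributed to. *Sil1* shares 108 and 88 exon bases with antisense genes, and *Dnajb9* shares 14 with a microRNA gene on the opposite strand.

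In XBP1ΔDC against control, 3 of the 10 genes were called lower (*Dnajb9*, *Dnajc3* and *Hyou1*), where 0.858% of all genes were. *Hspa5* was called higher, where 0.0365% of all genes were. Pools did not overlap for 5 genes that were lower (3.67% of all genes) and 1 that was higher (1.63%). At an unadjusted p under 0.05 there were 7 lower (4.95% of all genes) and 2 higher (2.67%). The median log2 value was -0.26 over the 10 genes and 0.00 over all genes. The members thus went both ways within a single comparison, and genes with an exact ERSE were on both sides: *Hspa5* rose, *Dnajc3* fell, and *Hsp90b1* and *Creld2* stood at 0.34 and -0.60 without passing. The calls of *Hspa5* and *Dnajc3* were near the threshold, and each was lost for 9 of the 11 pools when that pool was left out.

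In XBP1ΔDCIRE1truncDC against control, *Hspa5* was the single gene of the 10 called higher (0.0639% of all genes). In edgeR 0 of the 10 were called lower (0.292% of all genes), with 3 at an unadjusted p under 0.05 (5.44% of all). On the higher side 3 were at an unadjusted p under 0.05, *Hsp90b1*, *Hspa5* and *Manf* (5.73% of all). DESeq2 called 2 lower, *Dnajb9* and *Hyou1*, and limma-voom called *Dnajb9*. Pools did not overlap for 2 genes that were lower (5.81% of all genes) and 3 that were higher (4.31%). The median log2 value was -0.09 over the 10 genes and 0.00 over all.

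Between the lines, edgeR called 0 of the 10 genes lower or higher, where 0% and 0.0731% of all genes were. At an unadjusted p under 0.05 there were 0 lower (2.5% of all genes) and 2 higher, *Dnajb11* and *Hspa5* (2.79%). The same 2 genes had no overlap between pools (3.11% of all genes), and 0 had none on the lower side (2.96%). DESeq2 called *Dnajb11* and limma-voom called 0. All 10 log2 values were above 0 (0.08 to 0.43), as were 50.4% over all genes, but without XBP1ΔDCIRE1truncDC replicate 2 this held for 8, with *Creld2* at -0.07 and *Sil1* at -0.02. The 3 comparisons share pools and are not independent of each other.

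**Figure D3:**
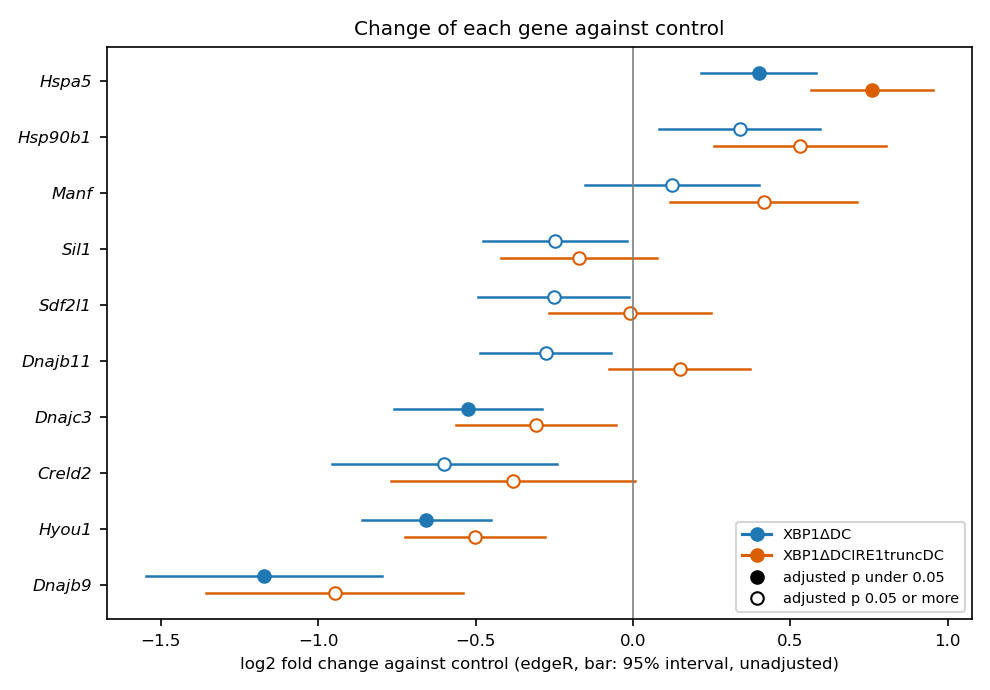
Log2 fold change of each gene against control in XBP1ΔDC (blue) and XBP1ΔDCIRE1truncDC (orange), ordered by the value in XBP1ΔDC, with unadjusted 95% intervals as bars. Filled points passed an adjusted p of 0.05 in edgeR. Hspa5 is filled in both lines, and Dnajc3, Hyou1 and Dnajb9 in XBP1ΔDC alone, though the difference between the lines passed for none of them.

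XBP1ΔDCIRE1truncDC replicate 2 stood apart from the other double-deficient pools. It was the highest of the 3 for 9 of the 10 genes and the lowest for *Dnajb9*, while it was the highest for 35.8% of all genes tested. Its summed level of the 10 genes was 6432 CPM, against 5163 and 4498 in replicates 1 and 3. Its markers were not the highest of the 3 for cDC1s (12610 CPM) or melanoma (10.2 CPM) but were for macrophages and monocytes (94.4 CPM), whose part was not tested. Without this pool *Hspa5* was still called in XBP1ΔDCIRE1truncDC (log2 0.62, adjusted p = 0.00239 from edgeR), and *Manf* was at 0.19 (adjusted p = 0.509).

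**Figure D4:**
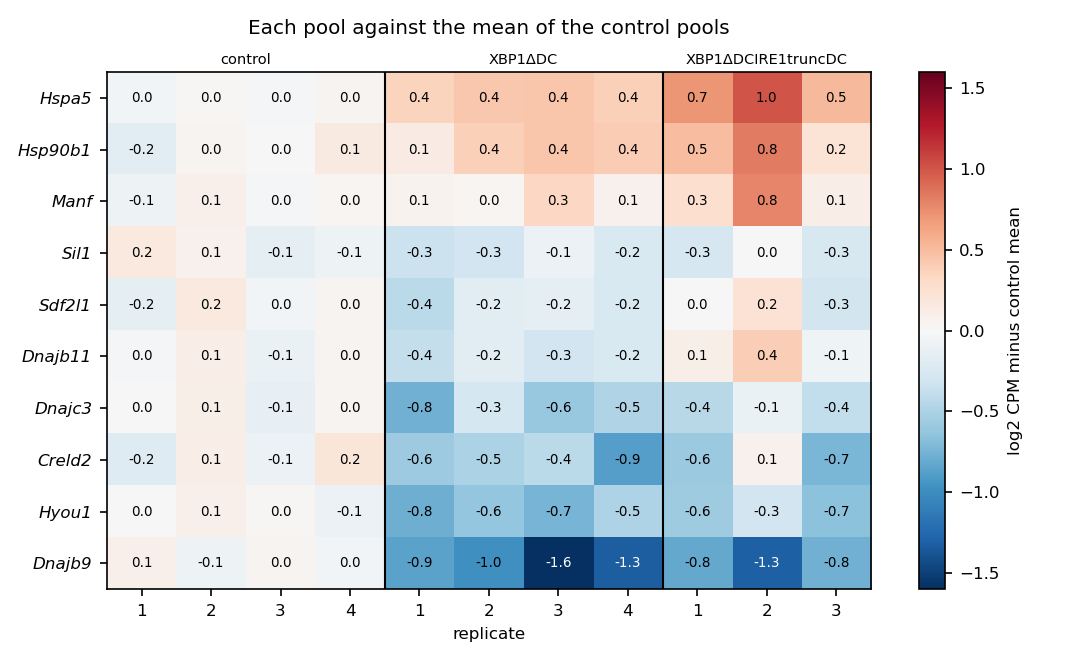
Log2 CPM of each gene in each pool minus the mean of the control pools (red higher, blue lower), with genes ordered by their change in XBP1ΔDC. Hspa5 is above 0 and Dnajb9 and Hyou1 below 0 in all 7 pools of the lines, and replicate 2 of XBP1ΔDCIRE1truncDC holds the highest value of its group in every row but Dnajb9.

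Levels were compared between genes as RPKM, the CPM divided by exon length in kilobases. That length holds every exon base of all annotated transcripts, made in these cells or not (3524 bases for *Manf*). The order of genes and the shares of summed RPKM therefore depend on the annotation, while the change of a gene between groups does not. In controls *Hspa5* was at 396 RPKM ± 10.1 (SD, n = 4), followed by *Hsp90b1* at 251.2 ± 21.7 and *Sdf2l1* at 246 ± 23.1, whose pools overlapped. *Creld2* (82.7 ± 10.6), *Dnajb11* (54.4 ± 3.38), *Manf* (46.6 ± 2.45), *Dnajc3* (39.6 ± 2.59) and *Hyou1* (15.7 ± 0.798) followed without overlap. *Sil1* (12.3 ± 1.18) and *Dnajb9* (11.4 ± 0.620) were lowest and overlapped. In XBP1ΔDC pools *Hsp90b1* (318 ± 30.1) and *Sdf2l1* (206 ± 17.4) no longer overlapped, and *Dnajb9* (5.07 ± 1.17) was below all other genes. By group means the first 3 genes kept their order in all 3 groups, while *Creld2*, *Manf* and *Dnajb11* overlapped in both lines. BiP made up 33.2% to 35.8% of the summed RPKM of the 10 genes in controls, 41.0% to 43.8% in XBP1ΔDC and 43.3% to 44.8% in XBP1ΔDCIRE1truncDC pools.

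The ratio of *Hspa5* to another gene within a pool does not depend on the scaling between pools, and it shows unequal change only. The gene pairs were chosen with results known, so the ratios are a description. The RPKM ratio of *Hspa5* to *Dnajb9* was 31.9, 37.5, 33.2 and 36.8 in controls, 80.5, 92.2, 145 and 113 in XBP1ΔDC pools and 100.6, 172 and 85.1 in XBP1ΔDCIRE1truncDC pools. For *Hyou1* the mean was 25.3 ± 1.62 (SD, n = 4), 52.9 ± 5.03 (n = 4) and 60.3 ± 2.85 (n = 3). For *Sdf2l1* it was 1.62 ± 0.118, 2.54 ± 0.158 and 2.75 ± 0.101. For *Hsp90b1* it was 1.58 ± 0.106, 1.65 ± 0.134 and 1.86 ± 0.0834, and the XBP1ΔDC pools overlapped the controls. Of the 9 ratios, 8 were above the control range in every XBP1ΔDC pool and 9 in every XBP1ΔDCIRE1truncDC pool. All 9 share *Hspa5*, whose own pools did not overlap between groups, so these counts in part repeat its rise. Ratios of *Hspa5* to all other genes were not computed, so the counts do not set the 9 genes apart. Between the lines 8 of the 9 overlapped.

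**Figure D5:**
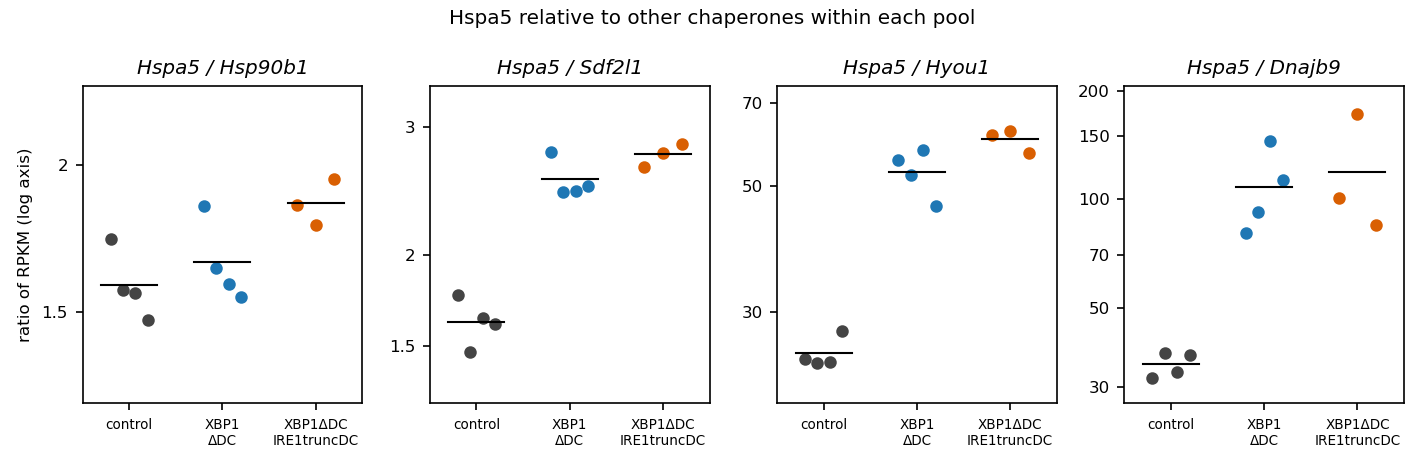
Ratio of Hspa5 RPKM to that of Hsp90b1, Sdf2l1, Hyou1 and Dnajb9 in each pool (points, log axes that differ between panels), with the group mean as a line. The ratio to Dnajb9 lies at 31.9 to 37.5 in controls and from 80.5 upwards in the other pools, while that to Hsp90b1 overlaps between control and XBP1ΔDC.

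Within genotypes, most of the 10 genes varied together from pool to pool. Across the 11 pools, which share their libraries and scaling, deviations of log2 CPM from the genotype mean were correlated above 0 in all 36 pairs without *Dnajb9* (Pearson r from 0.30 to 0.93, median 0.67). The same values were not computed over pairs of all genes, so this count does not set the 10 genes apart. Without XBP1ΔDCIRE1truncDC replicate 2 the median was 0.41, and 31 of the 36 were above 0. The highest pair, *Hsp90b1* and *Sdf2l1*, had Pearson's r = 0.93 and Spearman's rho = 0.82, and r = 0.84 without the pair of pools farthest from the median. *Dnajb9* had r below 0 with the other 9 genes (-0.82 to -0.35), and still did without that pool (-0.79 to -0.06). Its lowest value was with *Manf* (r = -0.82, rho = -0.82, and r = -0.58 without the farthest pools).

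Over 7993 genes with a mean above 10 CPM, the 5 with deviations most like those of *Hspa5* were *Eprs* (r = 0.96), a tRNA synthetase gene, *Pdia3* (r = 0.95), which encodes a disulfide isomerase of the ER, *Srp19*, *Vps33a* and *Ipo9*. Of the members, *Manf* was at place 10 in that order, *Dnajb11* at place 22, *Hsp90b1* at place 23, *Sdf2l1* at place 45 and *Creld2* at place 48. *Hyou1* (place 736), *Dnajc3* (991) and *Sil1* (1209) were further down, and *Dnajb9* was near the end (7299). The 5 genes most like *Dnajb9* were *Vps51* (r = 0.96), *Rpl9*, *Paip2*, *Eno3* and *Prnp* (r = 0.94). These are the top values of many correlations over 11 pools.

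Other chaperones and partners were read from lists set up by function. Of the 8 other J-domain proteins of the ER, 0 passed in edgeR in either line, with 0 in XBP1ΔDC and 1 (lower) in XBP1ΔDCIRE1truncDC at an unadjusted p under 0.05 and 0 by DESeq2 or limma-voom. Of 4 tested partners and relatives of these proteins, and of 7 tested genes of the calnexin and calreticulin cycle, 0 passed as well. At an unadjusted p under 0.05 the former held 1 in each line, all lower, and the latter 2 lower in XBP1ΔDC and 2 lower and 2 higher in XBP1ΔDCIRE1truncDC. Over all genes the shares at that limit were 4.95% lower and 2.67% higher in XBP1ΔDC, and 5.44% and 5.73% in XBP1ΔDCIRE1truncDC. DESeq2 called 1 of the former lower in XBP1ΔDCIRE1truncDC (*Hspa13*) and 2 of the latter lower in XBP1ΔDC (*Mogs* and *Uggt1*), while limma-voom called 0. *Canx* (calnexin) was at log2 -0.07 and -0.05 in XBP1ΔDC and XBP1ΔDCIRE1truncDC, and *Calr* (calreticulin) at 0.13 and 0.26. Of 10 tested client-specific chaperones and prolyl isomerases, *Cnpy3*, a co-chaperone of GRP94 for Toll-like receptors, fell in XBP1ΔDC (log2 -0.41, adjusted p = 0.0156 from edgeR). It was at 140.2 to 152 CPM in controls, 103 to 120.3 in XBP1ΔDC pools and 139 to 158 in XBP1ΔDCIRE1truncDC pools, where its log2 value was 0.01 (adjusted p = 0.108 from edgeR for the difference between the lines). DESeq2 called that difference, and it called *Cnpy3* and *Ppib* lower in XBP1ΔDC, where limma-voom called *Cnpy3* alone. At an unadjusted p under 0.05, 2 of the 10 were lower in XBP1ΔDC and 3 in XBP1ΔDCIRE1truncDC, with 0 higher. *Cnpy3* is also on the study's list of XBP1s targets, read below.

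Of 24 cytosolic and mitochondrial chaperones, 0 passed in edgeR in any comparison. At an unadjusted p under 0.05, 8 were lower (5.44% of all genes) and 1 higher (5.73%) in XBP1ΔDCIRE1truncDC. In XBP1ΔDC 1 was lower (4.95%) and 1 higher (2.67%), and the counts were not tested against each other. Between the lines 7 were lower in XBP1ΔDCIRE1truncDC (2.5% of all genes) and 0 higher (2.79%). Against control, DESeq2 called 3 lower in XBP1ΔDCIRE1truncDC, *Dnajb1*, *Hspa1a* and *Hspa1b*. It called *Hspa1b* lower between the lines as well, and limma-voom called 0. *Hspa1a*, a heat shock-inducible Hsp70 gene, was at 696 to 995 CPM in controls, 642 to 1065 in XBP1ΔDC pools and 346 to 664 in XBP1ΔDCIRE1truncDC pools (log2 -0.86, adjusted p = 0.149 from edgeR). *Hspa1b* was at 687 to 906, 674 to 1038 and 343 to 686 CPM (log2 -0.77, adjusted p = 0.173 from edgeR). These genes are near-identical, so how reads were divided between them is uncertain.

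The regulators of the response were read beside the chaperones. Of 14 UPR sensors and transcription factors, 3 fell in XBP1ΔDC in edgeR, where 0.858% of all genes did. They were *Xbp1* itself (log2 -0.74, adjusted p = 0.00167), *Eif2ak3*, the gene of PERK (log2 -0.71, adjusted p = 0.0151), and *Creb3l2* (log2 -2.33, adjusted p = 0.00158). *Creb3l2*, which encodes an ER-anchored transcription factor, fell in XBP1ΔDCIRE1truncDC too (log2 -2.10, adjusted p = 0.0134 from edgeR). It was at 8.48 to 12.3 CPM in controls, 1.22 to 2.91 in XBP1ΔDC pools and 1.74 to 3.01 in XBP1ΔDCIRE1truncDC pools. The levels in both lines are near the filter of 1 CPM, which limits how well the size of its fall is known. *Atf6* was at log2 -0.21 in both lines (adjusted p = 0.678 and 0.509 from edgeR). At an unadjusted p under 0.05, 4 of the 14 were lower (4.95% of all genes) and 2 higher (2.67%) in XBP1ΔDC. In XBP1ΔDCIRE1truncDC 3 were lower (5.44%) and 3 higher (5.73%). These counts include the targeted genes, *Xbp1* among the lower in both lines and *Ern1* among the higher in XBP1ΔDCIRE1truncDC (log2 0.62, adjusted p = 0.322 from edgeR). The higher ones in both lines were *Ddit3*, the gene of CHOP, at log2 0.67 and 0.85 (adjusted p = 0.185 and 0.1002 from edgeR) and *Atf4* at 0.35 and 0.30 (adjusted p = 0.235 and 0.319), and DESeq2 called *Ddit3* higher in both. The study's list of XBP1s targets holds 4 of the 10 genes, *Dnajb9*, *Hyou1*, *Dnajb11* and *Sdf2l1*, but not *Hspa5*. The study took the list from the literature and reported its targets as lower in both lines from these same data. The direction of the list is thus no independent evidence here. Of its other 56 genes, 24 fell in XBP1ΔDC (0.858% of all genes) and 16 in XBP1ΔDCIRE1truncDC (0.292%) in edgeR. None rose in edgeR or limma-voom, and 1 of the whole list rose in XBP1ΔDCIRE1truncDC by DESeq2. The edgeR fit gave median log2 values of -0.36 and -0.31 over the 56. Those with the smallest p included *Serp1* (log2 -0.63 and -0.74), *P4hb* (-0.78 and -0.68) and *Sec61b* (-0.81 and -0.81), genes of protein translocation and disulfide formation.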

How the data were processed

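RNA was amplified with SMART-seq v4 and sequenced from a single end. According to the submitters' processing notes, reads were trimmed with Trimmomatic 0.39, aligned with STAR 2.7.3a to mm10 and counted per gene with HTSeqCount 0.11.2. The annotation and the strand setting of counting are not given in the sources used here. The values used are the raw counts deposited by the authors. Their second table, normalized with limma 3.42.2, was not used.

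Pools were grouped by the genotype in the labels. Replicates are separate pools of mice, so p-values set group differences against the spread between pools, estimated over the 3 genotypes together. Pools of a group differed by 19.9 to 61.5 chi-square units per degree of freedom, well above counting error. The filter, more than 1 CPM in 4 or more pools, left 10951 genes with 99.9% of counts, which were tested in R 4.3.3 with edgeR 4.0.16, by its quasi-likelihood test after TMM scaling, in a fit of the 3 genotypes with Benjamini-Hochberg adjustment. The standard error is the log2 fold change divided by the square root of F. Log2 CPM used a prior count of 2. The procedure was tested on simulated data. Alternatives were RLE scaling, library size alone, DESeq2 1.42.0, limma-voom 3.58.1, edgeR with legacy=FALSE, other filters, a fit of the compared groups alone, a replicate block, a 1.5-fold limit and leaving out each pool. Gene positions and exon lengths were from GENCODE vM21 on GRCm38 and promoters from RefSeq on GRCm38.p6. Python 3.11.15, numpy 2.4.6 and matplotlib 3.10.9 drew the plots.

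The 10 genes and the other gene lists were chosen with earlier results of these data known. Genes named were the 10, *Xbp1* and *Ern1*, up to 5 genes per other list with the smallest p among those passing, *Hspa1a*, *Hspa1b*, *Canx*, *Calr* and *Atf6*, the 5 genes most like *Hspa5* and *Dnajb9* in deviation, and markers. *Dcaf1*, *4930524O07Rik*, *Rbm15b*, *Gm25745* and *Gm15344* (overlapping genes), *Hspa13*, *Mogs*, *Uggt1*, *Ppib*, *Dnajb1*, *Ddit3* and *Atf4* were named after values were seen. Protein sequences were not used here.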

Additional observations from a re-analysis of the deposited data

Results flagged for a closer look

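In XBP1ΔDC replicate 3, *Manf* stood at 206 CPM while the other 3 pools of the group lay at 167 to 172 CPM. Its gap to the nearest pool took 0.888 of the range of the group, above Dixon's 95% critical value for 4 samples. Among 20 such groups of 4 pools this was the single instance, and chance gives about 1 in 20. *Hspa5* in this pool was at 2272 CPM, the highest of its group, and *Dnajb9* at 9.42 CPM, the lowest. The cause was not tested.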

How the results depend on the processing

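Of the 20 alternative fits, none changed the direction of *Hspa5*, *Dnajb9*, *Hyou1* or *Dnajc3* against control in either line. The count of the 10 genes called lower in XBP1ΔDC stayed between 2 and 4 (3 as reported). The count called higher went from 1 to 0 with library size alone, without a filter, with a replicate block and with the 1.5-fold limit, and was 0 to 1 with each pool left out. In XBP1ΔDCIRE1truncDC the count called lower went from 0 to 1 with library size alone, limma-voom and edgeR with legacy=FALSE, to 2 with DESeq2, and was 0 to 1 with each pool left out. The count called higher went from 1 to 2 with DESeq2, which also called 1 gene higher between the lines, where edgeR called 0.

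Over all genes the 98 calls in XBP1ΔDC became 181 with DESeq2, 59 with the replicate block and 54 with the 1.5-fold limit, and 60 to 109 with a pool left out. They were under 66 without control replicates 1 or 2 or XBP1ΔDC replicates 1 or 4. The 39 calls in XBP1ΔDCIRE1truncDC became 199 with DESeq2, 12 with the block, 22 with these groups alone and 23 with the 1.5-fold limit. With a pool left out they were 17 to 33, and at most 22 without control replicates 1 or 2 or XBP1ΔDCIRE1truncDC replicates 1 or 3. The 8 calls between the lines became 59 with DESeq2 and 3 with the block, and 4 to 11 with a pool left out. With DESeq2, 41.7% of the calls in XBP1ΔDCIRE1truncDC were higher, against 7 of 39 in edgeR, and 76.3% between the lines, against 8 of 8. The causes were not tested.

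*Sdf2l1* in XBP1ΔDCIRE1truncDC turned from a log2 value of -0.01 to 0.05 without control replicate 2, 0.003265 without control replicate 4 and 0.12 without XBP1ΔDCIRE1truncDC replicate 3 (range -0.14 to 0.12). Between the lines, *Creld2* ranged from -0.072 to 0.37 and *Sil1* from -0.0196 to 0.13, both below 0 without XBP1ΔDCIRE1truncDC replicate 2 alone. Same-numbered pools had mean correlations of deviations of 0.098, 0.0035 and -0.22 in the 3 comparisons. Pools with different numbers had -0.033, -0.0012 and 0.074. In XBP1ΔDC against control every same-numbered pair was weakly above 0 (0.042 to 0.133). These values do not settle whether pools were paired, so the block is given here only. Groups of 3 and 4 pools leave small differences undetected, and *Dnajb9*, with the lowest counts, had the largest standard errors.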
